A study of Mus musculus with 9 samples.

Results

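The mitochondrially encoded complex I genes are the 7 subunit genes of NADH:ubiquinone oxidoreductase that lie on mouse mitochondrial DNA: mt-Nd1, mt-Nd2, mt-Nd3, mt-Nd4, mt-Nd4l, mt-Nd5 and mt-Nd6. They were taken by name, through their Ensembl identifiers, and are 7 of the 22396 genes in the deposited counts. RNA recovered with FLAG-tagged RIG-I from B16F10 cells, a mouse melanoma line, was measured by RNA immunoprecipitation and sequencing after depletion of ribosomal RNA. Cells carried a control shRNA (shCtr) or either of 2 shRNAs against Osgep (shOSGEP#1 and shOSGEP#2), with 3 libraries per group from independent experiments. All groups, the controls included, stably expressed FLAG-RIG-I and an shRNA delivered by lentivirus, so an effect of these shared steps cannot be told apart from the baseline. Input RNA was not analysed here, so in a share of counts the abundance of an RNA and its binding to RIG-I cannot be told apart.

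Complex I passes electrons from NADH to ubiquinone and pumps protons across the inner mitochondrial membrane, and its core membrane arm is built from the proteins of these 7 genes, while the remaining subunits are encoded in the nucleus. Mitochondrial DNA is transcribed from both strands into long precursors, which are cut into rRNAs, tRNAs and mRNAs. Most of the coding genes are read in one direction, here called heavy-strand genes, and mt-Nd6 is the only coding gene read in the other, the light-strand gene. RIG-I, encoded by Ddx58, is a cytosolic receptor for double-stranded RNA with 5′ phosphates, and OSGEP is the enzyme with which the KEOPS complex makes the t6A modification of tRNAs.

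Total counts were 40333037, 47750758 and 41805753 in shCtr, 34551436, 50224299 and 30697653 in shOSGEP#1, and 25460689, 568995 and 14914731 in shOSGEP#2, in the order of replicates 1, 2 and 3 that is kept throughout. The library of shOSGEP#2 replicate 2 was the smallest, with counts for 4196 genes against 11733 to 13958 in the other 8, and 3 counts, used as the floor, are 5.27 CPM in it (CPM are counts of a gene scaled to a common library total). Osgep, the target of the shRNAs, had 771, 949 and 649 counts in shCtr, 130, 58 and 47 in shOSGEP#1, and 2, 0 and 43 in shOSGEP#2. Every shOSGEP library was below every shCtr library in Osgep CPM. Ddx58 had 179.9, 184.2 and 278 CPM in shCtr, 231.9, 215.9 and 327.5 CPM in shOSGEP#1, and 401.5, 0 and 429.4 CPM in shOSGEP#2. The level was thus higher in shOSGEP#2 replicates 1 and 3 than in every shCtr library, while shOSGEP#1 overlapped shCtr. Its part in the results below was not tested.

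Markers of melanocytes fitted the labelled line: all 9 had counts in 8 libraries, and Tyr and Mitf were at 0 in shOSGEP#2 replicate 2. Their summed level was 9152, 8369 and 11140.4 CPM in shCtr, 10823, 14091 and 12776 CPM in shOSGEP#1, and 3818, 2624 and 4735 CPM in shOSGEP#2. The most abundant was Gpnmb or Tyrp1, and Sox10 in shOSGEP#2 replicate 2. Outside shOSGEP#2 replicate 2, the 5 leukocyte markers summed to at most 2.41 CPM and the 3 endothelial markers to at most 2.18 CPM. The 4 keratinocyte markers summed to at most 0.116 CPM. All these markers had 0 counts in shOSGEP#2 replicate 2, where the floor is 5.27 CPM. Krt5, Krt10 and Krt1 had 0 counts in each of the 9 libraries. The 5 fibroblast markers summed to 4.26, 6.03 and 6.27 CPM in shCtr, 4.08, 3.54 and 5.83 CPM in shOSGEP#1, and 16.4, 68.5 and 33.8 CPM in shOSGEP#2, led by Col1a1 or Col1a2 in 8 libraries and by Pdgfra in shOSGEP#1 replicate 2. The part of these differences in the results below was not tested.

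The summed share of the 7 genes was 0.0170%, 0.00980% and 0.0252% of all counts in shCtr. In shOSGEP#1 it was 0.0261%, 0.0289% and 0.762%, and in shOSGEP#2 0.0249%, 0.502% and 0.0333%. The shares of shOSGEP#1 replicate 3 (95% Wilson interval 0.759% to 0.766%) and shOSGEP#2 replicate 2 (0.484% to 0.521%) stood apart from the other 7 libraries, and these 2 are described separately. Against the median of those 7 libraries, 251.8 CPM, the summed level was 30.3-fold in shOSGEP#1 replicate 3 and 19.9-fold in shOSGEP#2 replicate 2. The other shOSGEP#1 libraries lay just above the highest shCtr library, as did shOSGEP#2 replicate 3, and shOSGEP#2 replicate 1 lay within the range of shCtr.

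The mean log2 share differed from shCtr by 2.37 for shOSGEP#1 and by 2.21 for shOSGEP#2, against a pooled SD between replicates of 2.02 and 1.76 (n = 3 per group). Without the 2 libraries described separately the differences were 0.77 and 0.83. No p was computed for this sum, because its members were chosen with earlier results known.

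**Figure D1:**
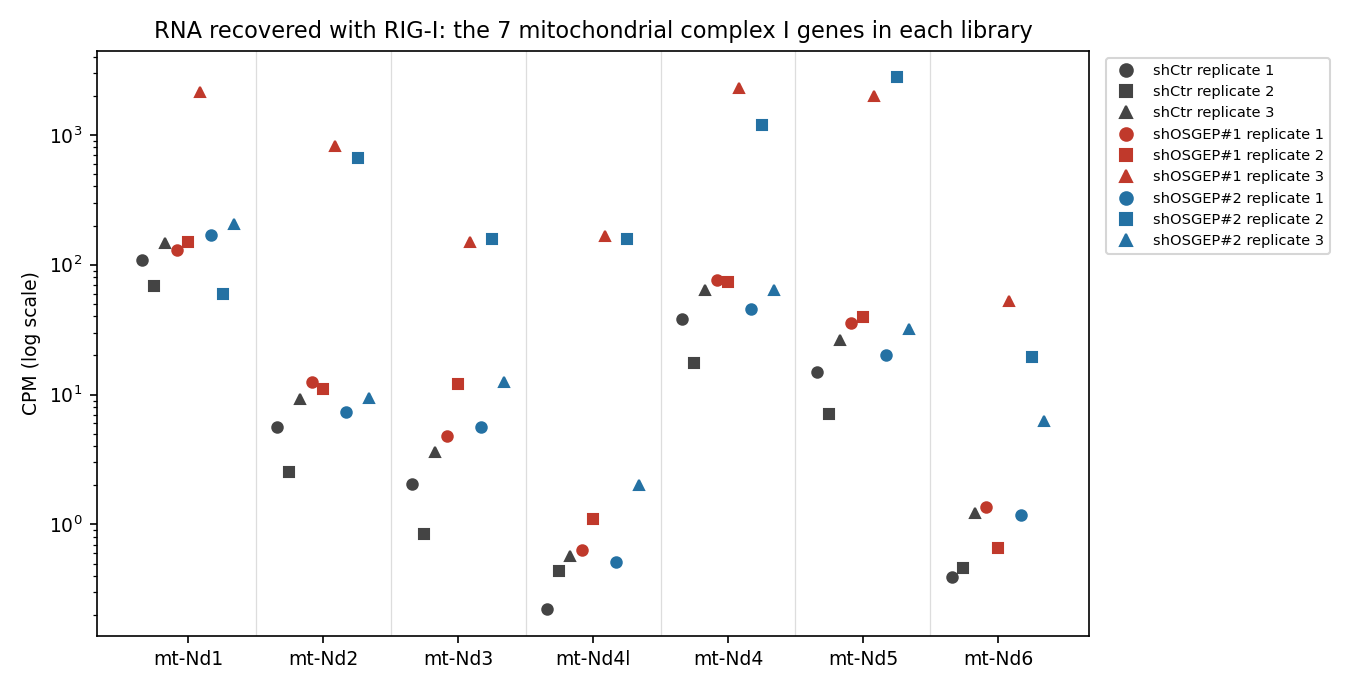
Level of each of the 7 genes in CPM (log scale) in each of the 9 libraries, 1 point per library, coloured by group and shaped by replicate number. The red triangle, shOSGEP#1 replicate 3, is the highest or the second highest point of each gene, and the blue square, shOSGEP#2 replicate 2, lies next to it for 6 genes and is the lowest point for mt-Nd1, at 59.8 CPM.

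mt-Nd1 encodes the subunit next to the ubiquinone site, and its level was 108.8, 69.1 and 146.3 CPM in shCtr, 130.7, 150.3 and 2136 CPM in shOSGEP#1, and 168.0, 59.8 and 206.9 CPM in shOSGEP#2. Apart from shOSGEP#1 replicate 3 the groups overlapped, and shOSGEP#2 replicate 2 was the lowest of all. mt-Nd2, which encodes an antiporter-like subunit of the membrane arm, had 5.68, 2.51 and 9.28 CPM in shCtr, 12.4, 11.1 and 826 CPM in shOSGEP#1, and 7.34, 664 and 9.45 CPM in shOSGEP#2. The shOSGEP#1 libraries were all above the shCtr libraries, whereas those of shOSGEP#2 overlapped them.

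mt-Nd4 and mt-Nd5 encode the other antiporter-like subunits. mt-Nd4 had 38.3, 17.6 and 64.4 CPM in shCtr, 75.7, 74.1 and 2287 CPM in shOSGEP#1, and 45.8, 1195 and 63.6 CPM in shOSGEP#2. mt-Nd5 had 14.9, 7.04 and 26.4 CPM in shCtr, 35.3, 39.9 and 2006 CPM in shOSGEP#1, and 20.2, 2769.8 and 31.8 CPM in shOSGEP#2. For these genes too, shOSGEP#1 lay above shCtr without overlap and shOSGEP#2 did not. mt-Nd5 was the member with the most counts in shOSGEP#2 replicate 2, 1576 of them.

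mt-Nd3 and mt-Nd4l encode small membrane subunits. mt-Nd3 had 2.03, 0.838 and 3.64 CPM in shCtr, 4.78, 12.0 and 149 CPM in shOSGEP#1, and 5.66, 156 and 12.5 CPM in shOSGEP#2. It was the only member for which the libraries of both shRNAs lay above all shCtr libraries. mt-Nd4l had 0.223, 0.440 and 0.574 CPM in shCtr, 0.637, 1.10 and 168 CPM in shOSGEP#1, and 0.511, 156 and 2.01 CPM in shOSGEP#2, on as few as 9 counts in shCtr replicate 1.

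mt-Nd6 encodes a membrane subunit near the junction with the peripheral arm. Its level was 0.397, 0.461 and 1.22 CPM in shCtr, 1.36, 0.657 and 52.1 CPM in shOSGEP#1, and 1.18, 19.3 and 6.24 CPM in shOSGEP#2. The groups overlapped for both shRNAs, and the value of shOSGEP#2 replicate 2 rests on 11 counts.

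In the test across all genes (edgeR quasi-likelihood, 9 libraries), 0 of the 7 genes passed a Benjamini-Hochberg adjusted p of 0.01 for shOSGEP#1, against 0% of the 12337 genes tested, and 7 of 7 had an unadjusted p under 0.05 and a higher level, against 2.83% of all genes. Their log2 fold changes had a median of 4.67, beside -0.01 over all genes tested. The smallest was that of mt-Nd1, 2.87 (SE 1.12), and the largest that of mt-Nd4l, 7.06 (SE 2.74), and the edgeR adjusted p ran from 0.823 to 0.928. All 7 values were positive with each normalisation, and without shOSGEP#1 replicate 3 the median was 1.00 and 0 of 7 reached an unadjusted p of 0.05, against 2.53% of all genes. The 7 of 7 also fell without a control library, to 0 without shCtr replicate 1, 0 without shCtr replicate 2 and 2 without shCtr replicate 3, while the medians stayed at 4.597, 4.44 and 5.38 and 301, 263 and 377 of all genes reached that level. With replicate number added as a block, 0 of 7 reached an unadjusted p of 0.05, against 3.3% of all genes (member median 3.49). With the block and without shOSGEP#2 replicate 2 it was 7 of 7, against 36.2%. The numbers may mark shared experiments, which correlations between same-numbered libraries did not settle. Without shOSGEP#2 replicate 2, the remaining shOSGEP#2 libraries mirror each other there (r of 0.180 and -0.180 with shCtr replicate 1).

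For shOSGEP#2, edgeR called 0 of 7 members and 0% of all genes at an adjusted p under 0.01, and 3 of 7 had an unadjusted p under 0.05 and a higher level (mt-Nd3, mt-Nd4l and mt-Nd5), against 5.84% of all genes. Log2 fold changes had a median of 4.07 beside -0.37 over all genes, from 0.27 (SE 1.05) for mt-Nd1 to 6.23 (SE 2.66) for mt-Nd4l, with edgeR adjusted p from 0.434 to 0.933. Scaling by library totals in place of TMM moved the median of all genes to -0.20 and left the 7 values positive. Without shOSGEP#2 replicate 2 the median of the members was 0.70 and 0 of 7 reached an unadjusted p of 0.05, against 35.6% of all genes. It was also 0 of 7 without any one shCtr library, where 661, 660 and 705 of all genes reached that level, and 6 of 7 without shOSGEP#1 replicate 3, against 8.59% of all genes. With the replicate block and 9 libraries it was 0 of 7, against 6.38% of all genes.

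The mean of both shRNAs against shCtr gave 0 of 7 members and 0% of all genes past the threshold in edgeR. At an unadjusted p under 0.05 there were 6 of 7 members and 817 of 12337 genes. With a library left out this count of members ran from 0 to 7. It was 7 without shOSGEP#2 replicate 2, against 34.9% of all genes, and 0 without shCtr replicate 1 or 2, against 2.91% and 2.76%. The replicate block with 9 libraries also gave 0, against 4.42%. The direct comparison of shOSGEP#2 with shOSGEP#1 likewise gave 0 of 7 and 0%, with 1 of 7 members and 1325 genes at an unadjusted p under 0.05. The comparisons with shCtr share the control libraries. DESeq2 on the 9 libraries listed a p for mt-Nd3 and mt-Nd6 alone among the members, and called 122 genes for shOSGEP#1, 350 for shOSGEP#2, 175 for their mean and 408 for shOSGEP#2 against shOSGEP#1. By DESeq2, mt-Nd3 passed for the mean of the shRNAs (log2 fold change 4.44, SE 1.15, adjusted p = 0.00847), as did 1.33% of the genes with an adjusted p, and it was above shCtr in 6 of 6 shOSGEP libraries. The members without a p had log2 fold changes of 6.77 (SE 1.59, mt-Nd4l), 5.37 (SE 1.43, mt-Nd5), 5.17 (SE 1.43, mt-Nd2), 3.63 (SE 1.20, mt-Nd4) and 1.59 (SE 0.92, mt-Nd1). The call therefore does not set mt-Nd3 apart from them.

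The count of called genes turned on shOSGEP#2 replicate 2. Without it, edgeR called 9.67% of 12744 genes for shOSGEP#1, 9.55% for shOSGEP#2 and 10.8% for shOSGEP#2 against shOSGEP#1, and the common dispersion was 0.0692 in place of 0.420. Again 0 of 7 members passed in each of these comparisons, with 7, 0 and 5 members at an unadjusted p under 0.05, against 34.9%, 35.6% and 37.1% of all genes. At an adjusted p under 0.05, edgeR called 7 of 7 for shOSGEP#1, against 21.9% of all genes, with mt-Nd3 at an adjusted p of 0.0138 (log2 fold change 4.67, SE 1.12) and mt-Nd1 at 0.0394 (2.89, SE 0.89). DESeq2 on these 8 libraries, an alternative chosen after the data were seen, called 2397 and 2374 genes for shOSGEP#1 and shOSGEP#2, 18.9% and 18.2% of those with an adjusted p. It listed a p for mt-Nd3 alone and called it for shOSGEP#1 (log2 fold change 4.68, SE 1.27, DESeq2 adjusted p = 0.00169) but not for shOSGEP#2 (adjusted p = 0.310) or for the mean of the shRNAs (adjusted p = 0.0176), which it had passed with 9 libraries.

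With shOSGEP#1 replicate 3 left out as well, edgeR called 5.72% of 12662 genes for shOSGEP#1 and 11.6% for shOSGEP#2, and 0 of 7 members for either, with 2 and 3 members at an unadjusted p under 0.05, against 31.1% and 39.2% of all genes. Members then had a median log2 fold change of 1.00 and 0.70, beside -0.01 and -0.06 over all genes. mt-Nd3 had the largest difference for shOSGEP#1, 1.94 (SE 0.62, edgeR adjusted p = 0.0623), and 1.96 for shOSGEP#2 (SE 0.62, edgeR adjusted p = 0.0461). mt-Nd6 differed by 0.52 (SE 0.87) for shOSGEP#1 and by 2.29 (SE 0.87) for shOSGEP#2, with edgeR adjusted p of 0.745 and 0.0804.

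Every shOSGEP#1 library lay above every shCtr library for 5 of the 7 genes (mt-Nd2, mt-Nd3, mt-Nd4, mt-Nd4l and mt-Nd5), against 23.5% of the genes tested. For shOSGEP#2 this held for mt-Nd3 alone, 1 of 7, against 9.07% of the genes tested, and without shOSGEP#2 replicate 2 for mt-Nd1 and mt-Nd3, 2 of 7, against 29.3%. The reverse, every library below shCtr, held for 0 members with either shRNA, against 22.7% of the genes tested for shOSGEP#1 and 20.5% for shOSGEP#2.

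Levels of different genes were compared per kilobase. Over the 7 libraries that did not stand apart, mt-Nd1 was highest at 146.3 ± 45.7 CPM per kb (SD, n = 7), ahead of mt-Nd4 at 39.4 ± 15.4, and their ranges did not overlap. mt-Nd3 (17.0 ± 13.3), mt-Nd5 (13.7 ± 6.42), mt-Nd2 (7.95 ± 3.25), mt-Nd6 (3.17 ± 3.97) and mt-Nd4l (2.64 ± 2.03 CPM per kb) followed. Each of these overlapped its neighbour in range, as did mt-Nd4 and mt-Nd3, although mt-Nd4 was above mt-Nd3 and mt-Nd5 above mt-Nd2 in 7 of 7 libraries. mt-Nd3 was above mt-Nd5 in 3 of 7. In shCtr alone, mt-Nd5 was above mt-Nd3 in 3 of 3 libraries, with means of 8.84 and 6.23 CPM per kb. mt-Nd6 was above mt-Nd4l in 5 of 7 libraries, and below it in 2 of 6 without shOSGEP#2 replicate 3, where the order of the means turned (1.69 and 1.95 CPM per kb).

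The 2 libraries that stood apart differed from each other in this order. In shOSGEP#1 replicate 3, mt-Nd1 was still highest, at 2232 CPM per kb, and mt-Nd6 lowest, at 100.4. There, each member was above the median of the 7 libraries, from 14.6-fold for mt-Nd1 to 292-fold for mt-Nd4l. In shOSGEP#2 replicate 2, mt-Nd5 was highest at 1519 CPM per kb and mt-Nd1 was at 0.408-fold of the median, while the other 6 members were at 16.4-fold (mt-Nd6) to 272-fold (mt-Nd4l). The per-kb ratio of mt-Nd1 to mt-Nd2, which are neighbours on the genome, was 20.8, 29.8 and 17.1 in shCtr, 11.4, 14.7 and 2.80 in shOSGEP#1, and 24.8, 0.0976 and 23.7 in shOSGEP#2. The 3 shOSGEP#1 ratios were below the 3 of shCtr, and those of shOSGEP#2 overlapped them.

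**Figure D2:**
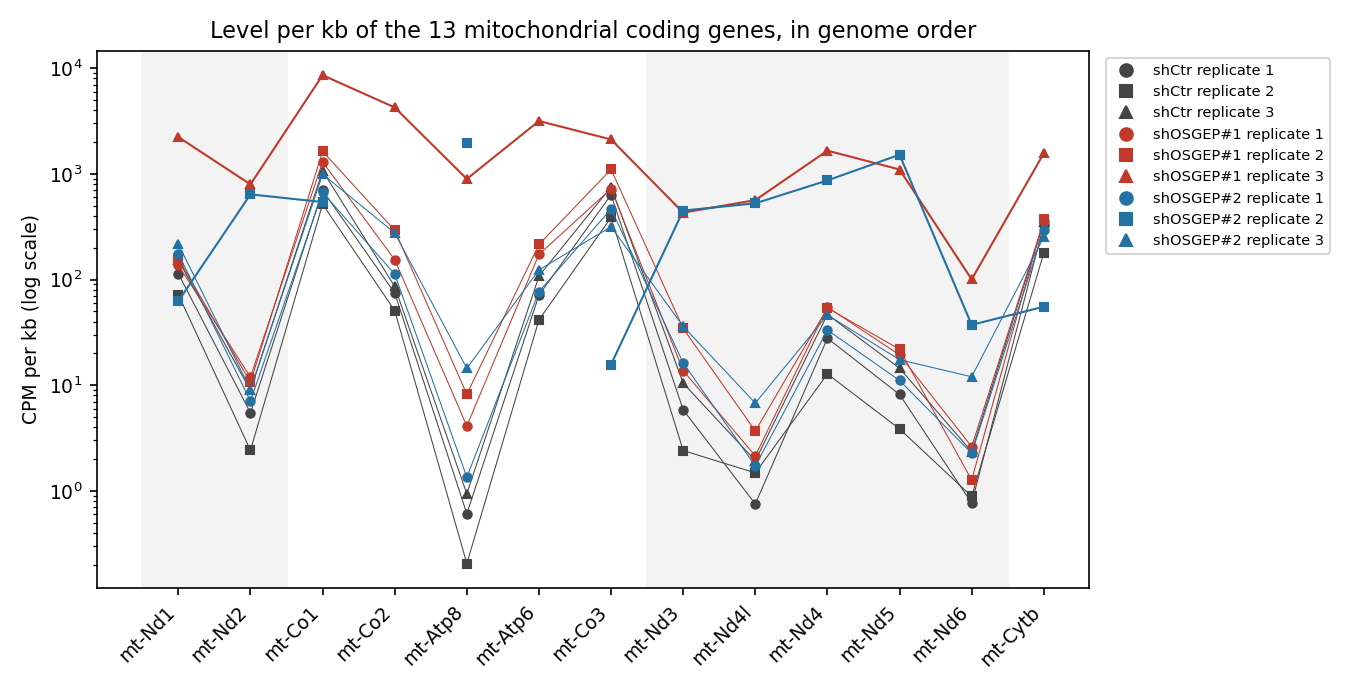
Level per kilobase (CPM per kb, log scale) of the 13 mitochondrial coding genes in genome order, 1 line per library, with the complex I genes shaded. Values of 0 (mt-Co2 and mt-Atp6 in shOSGEP#2 replicate 2) are not drawn and break its line, which lies above that of shOSGEP#1 replicate 3 at mt-Nd3 and mt-Nd5 and below it at the other 5 complex I genes, farthest at mt-Nd1.

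The other 6 mitochondrial coding genes, of complexes III, IV and V, held 0.206%, 0.137% and 0.277% of the counts in shCtr, 0.321%, 0.416% and 2.20% in shOSGEP#1, and 0.186%, 0.131% and 0.235% in shOSGEP#2. Their sum was 9.36-fold over the median of the 7 libraries in shOSGEP#1 replicate 3 and 0.559-fold in shOSGEP#2 replicate 2. In the latter, mt-Atp8, a small subunit of ATP synthase, was at 400.7 CPM, on 228 counts, while mt-Co2 and mt-Atp6 had 0 counts. The complex I genes are 55.8% of the summed length of the 13 genes and held 7.66%, 6.68% and 8.32% of their counts in shCtr, 7.52%, 6.49% and 25.8% in shOSGEP#1, and 11.8%, 79.3% and 12.4% in shOSGEP#2. Their share was thus highest in the same 2 libraries. Of the other 6 genes, edgeR called 0 for either shRNA with 9 libraries, and 4 and 1 reached an unadjusted p of 0.05, against 5.03% and 10.1% of all genes, and 6 and 0 without shOSGEP#2 replicate 2, against 34.9% and 35.6%. Their median log2 fold changes with 9 libraries were 3.15 and -0.23, beside -0.01 and -0.37 over all genes. Without shOSGEP#2 replicate 2 the second was 0.18, beside -0.06 over all genes, and with shOSGEP#1 replicate 3 left out as well the first was 1.16.

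mt-Nd6 was set against the 6 heavy-strand members within each library, a ratio that does not depend on library size. Per 1000 counts of those genes, mt-Nd6 had 2.33, 4.73 and 4.87 counts in shCtr, 5.24, 2.28 and 6.88 in shOSGEP#1, and 4.76, 3.87 and 19.1 in shOSGEP#2. As a share of the 7 genes it was 1.88% in shOSGEP#2 replicate 3, on 93 counts (95% Wilson interval 1.53% to 2.29%), and at most 0.683% in the other 8 libraries (0.651% to 0.717% in shOSGEP#1 replicate 3). Intervals and floors treat each count as independent and leave out the spread between replicates. PCR copies of one molecule were not marked by identifiers, so the intervals may be too narrow even for counting error. The mean log2 ratio differed from shCtr by 0.20 for shOSGEP#1 and 0.90 for shOSGEP#2, each less than the pooled SD of 0.72 and 0.98. The first changed sign, to -0.13, without shOSGEP#1 replicate 3 and the second was 0.19 without shOSGEP#2 replicate 3.

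**Figure D3:**
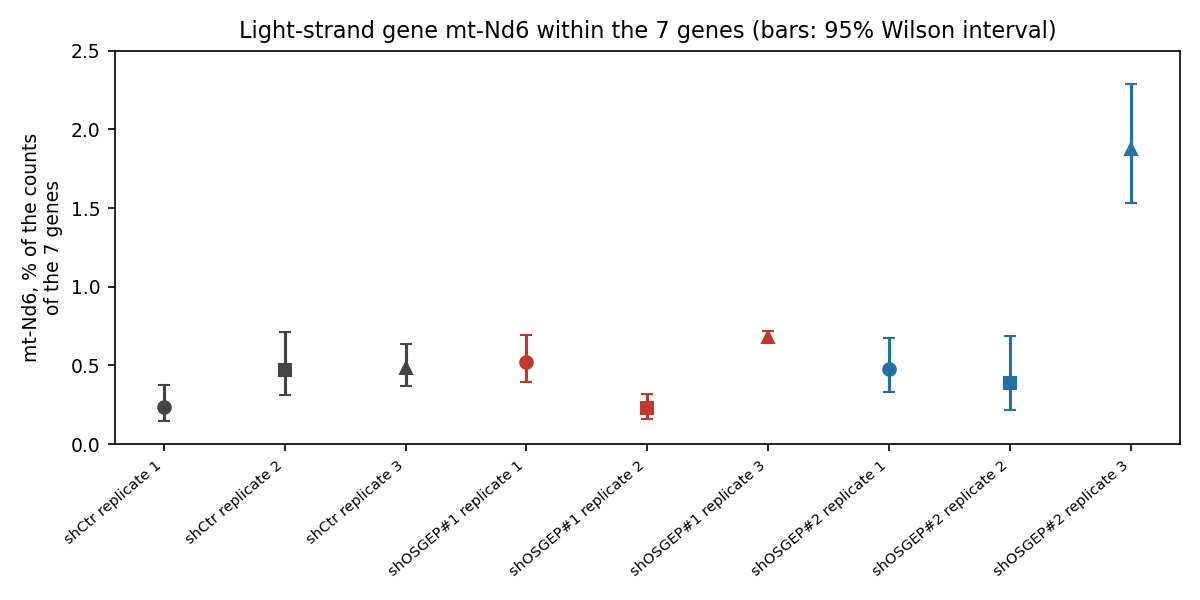
Counts of mt-Nd6 as a percent of the counts of the 7 genes in each library, with 95% Wilson intervals for counting error. shOSGEP#2 replicate 3 is at 1.88% and the other 8 libraries are at 0.683% or below.

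Sequences of the members, from GENCODE transcripts of GRCm38, show where counting cannot separate them. mt-Nd4l and mt-Nd4 share 7 bases on the same strand, and the 3′ ends of mt-Nd5 and mt-Nd6 share 14 bases on opposite strands. The stretches at these joints are shown, 5′ to 3′, with the shared bases in capitals.
mt-Nd4l, last bases: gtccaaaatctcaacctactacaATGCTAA
mt-Nd4, first bases: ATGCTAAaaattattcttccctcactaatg
mt-Nd5, last bases: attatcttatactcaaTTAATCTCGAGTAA
mt-Nd6, last bases: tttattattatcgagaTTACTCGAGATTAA
The library kit keeps strand, but the strand setting of the counting is not stated, so reads of mt-Nd6 and reads of the opposite strand there cannot be told apart. In base composition mt-Nd6 was 28.1% G and 5.97% C, whereas the 6 others were at most 11.6% G and at least 22.1% C.

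Nuclear copies of mitochondrial sequence could also share reads with the members. In GENCODE, the pseudogene Gm10222 matched 294 of the 297 bases of mt-Nd4l with no mismatch, Gm28439 matched 876 of the 1378 bases of mt-Nd4 with no mismatch, and Gm28438 matched mt-Nd3 at 99.7% over 345 of 348 bases. The best copies of mt-Nd2, mt-Nd6, mt-Nd5 and mt-Nd1 were 96.7%, 93.6%, 92.3% and 76.6% identical over the part aligned. None of these 7 copies has a row in the counts. The levels of mt-Nd3, mt-Nd4 and mt-Nd4l are therefore uncertain by the amount of such RNA, which was not tested.

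All 37 nuclear genes of complex I subunits had a row in the counts. Their summed level was 2585, 2375 and 2689.8 CPM in shCtr, 2513, 2408 and 2742 CPM in shOSGEP#1, and 2226, 1343 and 2389 CPM in shOSGEP#2. shOSGEP#1 replicate 3 was the highest, just above shCtr replicate 3, and in shOSGEP#2 replicate 2 25 of the 37 had 0 counts. Per kilobase of the longest transcript, Ndufa7, Ndufb9 and Ndufa2 had the highest means (105.5, 104.3 and 103.3 CPM per kb over 9 libraries) and Ndufb5, Ndufb2 and Ndufb7 the lowest (12.97, 10.8 and 8.55).

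With 9 libraries, edgeR called 0 of the 37 nuclear subunits for either shRNA and 0 reached an unadjusted p of 0.05, against 5.03% and 10.1% of all genes; the median log2 fold changes were -0.02 and -0.68, beside -0.01 and -0.37 over all genes, and the second was -0.25 without shOSGEP#2 replicate 2, beside -0.06. Without shOSGEP#2 replicate 2, 7 and 7 of 37 were at an unadjusted p under 0.05, against 34.9% and 35.6% of all genes, and edgeR called 1 of 37 for shOSGEP#2, against 9.55% of all genes: Ndufs8, an iron-sulphur subunit, which was lower. Ndufs8 had 42.0, 39.98 and 46.5 CPM in shCtr, 34.9, 26.5 and 49.9 CPM in shOSGEP#1, and 19.3, 0 and 18.7 CPM in shOSGEP#2. Its log2 fold change for shOSGEP#2 was -1.27 (SE 0.25, edgeR adjusted p = 0.00565), and 0.607 was its adjusted p in edgeR with 9 libraries. Ndufa8, an accessory subunit, was the 1 of 37 called in the comparison of shOSGEP#2 with shOSGEP#1 without that library, against 10.8% of all genes (log2 fold change -1.08, SE 0.23, edgeR adjusted p = 0.00707). It had 68.1, 56.0 and 72.3 CPM in shCtr, 96.1, 95.8 and 115.5 CPM in shOSGEP#1, and 62.96, 152.9 and 38.9 CPM in shOSGEP#2, so the library left out was the highest of the 9. With 9 libraries the difference was -0.68 (edgeR adjusted p = 0.653), and with shOSGEP#1 replicate 3 left out as well the edgeR adjusted p was 0.0198.

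Of the 18 complex I assembly factors with a row (Coa1 had none), edgeR called 0 for either shRNA with or without shOSGEP#2 replicate 2. Of all genes, 0% were called with 9 libraries, and 9.67% and 9.55% without that library. At an unadjusted p under 0.05 there were 0 of these factors for either shRNA with 9 libraries, against 5.03% and 10.1% of all genes. With 8 libraries there were 5 and 2, against 34.9% and 35.6%. Of 10 genes for replication and transcription of mitochondrial DNA, edgeR called 0 for either shRNA with 9 libraries or with 8. Of all genes, 0% were called with 9, and 9.67% and 9.55% with 8. At an unadjusted p under 0.05 there were 0 of the 10 with 9 libraries, against 5.03% and 10.1% of all genes. There were 1 and 1 with 8, against 34.9% and 35.6%. In shOSGEP#2 against shOSGEP#1 with 8 libraries, edgeR called 1 of 10, the helicase gene Twnk, against 10.8% of all genes. Twnk had 31.7, 31.1 and 27.3 CPM in shCtr, 46.0, 44.7 and 61.5 CPM in shOSGEP#1, and 19.9, 0 and 24.5 CPM in shOSGEP#2. The shOSGEP#1 libraries were above and the shOSGEP#2 libraries below those of shCtr. In 8 libraries the 2 shRNAs differed by a log2 fold change of -1.28 (SE 0.20, edgeR adjusted p = 0.00136). With all 9 it was -1.78 (SE 0.95, edgeR adjusted p = 0.569).

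Of 15 genes for processing and stability of mitochondrial RNA, edgeR called 0 with 9 libraries, with 0 and 1 at an unadjusted p under 0.05 (5.03% and 10.1% of all genes). With 8 it called Fastk alone for shOSGEP#2, 1 of 15 against 9.55% of all genes, and 4 and 5 of 15 were at an unadjusted p under 0.05, against 34.9% and 35.6%. Fastk, a kinase family member whose mitochondrial form is known for binding and stabilising mt-Nd6 mRNA, had 70.9, 74.8 and 69.8 CPM in shCtr, 58.6, 54.6 and 45.3 CPM in shOSGEP#1, and 111.6, 249.6 and 156.0 CPM in shOSGEP#2. Every shOSGEP#2 library was above, and every shOSGEP#1 library below, every shCtr library. Its log2 fold change with 8 libraries was 0.80 for shOSGEP#2 (SE 0.17, edgeR adjusted p = 0.00871), -0.46 for shOSGEP#1 (SE 0.16, edgeR adjusted p = 0.0606) and 1.25 between the shRNAs (SE 0.17, edgeR adjusted p = 0.000684). With 9 libraries the edgeR adjusted p was 0.387 for shOSGEP#2 and 0.185 between the shRNAs. Of 3 genes for decay of mitochondrial RNA, edgeR called 0 for either shRNA in either fit, with 3 and 0 at an unadjusted p under 0.05 in 8 libraries, against 34.9% and 35.6% of all genes, and 0 and 0 in 9.

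Over the 8 libraries other than shOSGEP#2 replicate 2, the genes whose log2(CPM + 0.5) followed the summed members most closely, among 10959 genes, were Eif5b, mt-Atp6, mt-Co2, Zbtb2 and Cyp2j9, with Pearson r of 0.976, 0.976, 0.968, 0.965 and 0.961. These rest on shOSGEP#1 replicate 3: without it, r was 0.684, 0.834, 0.848, 0.623 and 0.723 over 7 libraries. For mt-Nd6 they were Dnttip2, Ggnbp2, Kifap3, Hcfc1r1 and Nipbl, with r of 0.991, 0.977, 0.960, 0.955 and 0.953, and 0.959, 0.886, 0.860, 0.795 and 0.944 without that library. These are descriptions over libraries that also differ in depth.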

How the data were processed

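RNA recovered with FLAG-RIG-I was sequenced from 9 B16F10 libraries. Per the labels and the study's methods, the authors used bcl2fastq, Trim Galore, STAR and Salmon with GRCm39 and deposited whole-number counts per gene, not normalised. Total counts ran from 568995 to 50224299, which limits the precision of each library but does not alone set it. In shOSGEP#2 replicate 2, Ddx58 had 0 counts at a floor of 5.27 CPM, against 179.9 to 429 CPM in the other libraries. The cause was not tested. CPM are counts divided by the library's total. Genes were tested with edgeR 4.0.16 in R 4.3.3 (TMM, filterByExpr, quasi-likelihood, a coefficient per group, no covariate, all 9 libraries), Benjamini-Hochberg adjustment over all genes tested and a threshold of 0.01. The SE is the log2 fold change over the square root of F. The tests were checked on data simulated with less spread between replicates than the 9 libraries had (common dispersion 0.420) and with no library that stood apart. The check therefore does not show their power in the main fit. DESeq2 1.42.0, other normalisations, filters and thresholds, a replicate block and left-out libraries were alternatives, and DESeq2 without shOSGEP#2 replicate 2 was added after the data were seen.

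Members and lists were chosen with earlier results of these data known. Named were the 7 members, listed genes past the threshold with 9 libraries or without shOSGEP#2 replicate 2 (up to 5 per list and comparison), the 3 nuclear subunits highest and the 3 lowest per kilobase, Osgep and Ddx58, and the 5 genes most correlated with the members and with mt-Nd6 (at least 10 counts in each library). Also named were markers of cell types, other mitochondrial coding genes, the best nuclear copies of the members, and Coa1. Genes flagged for opposite directions with the 2 shRNAs were named as well. Gene names matched 22237 of 22396 identifiers. Sequences and lengths come from GENCODE for GRCm38, so no coordinates are given. The 2 mitochondrial rRNA genes, with no row, were left out. Python 3.11.15, numpy 2.4.6, pandas 2.3.3 and matplotlib 3.10.9 were used.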

Additional observations from a re-analysis of the deposited data

Results flagged for a closer look

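For 4 named genes outside the 7 members, every library of one shRNA lay above the shCtr mean and every library of the other lay below it, on the log2(CPM + 0.5) scale. Fastk was lower with shOSGEP#1 by a mean of -0.45 and higher with shOSGEP#2 by 1.18, a difference between the shRNAs of 1.63 (edgeR adjusted p = 0.185 with 9 libraries and 0.000684 without shOSGEP#2 replicate 2). Twnk went the other way, with means of 0.73 and -2.26 and a difference of -2.999 (edgeR adjusted p = 0.569 and 0.00136). Its 0 counts in shOSGEP#2 replicate 2 enlarge the shOSGEP#2 mean and the difference, which were -0.43 and -1.17 without that library. mt-Co3 had means of 1.06 and -2.09 and a difference of -3.15 (edgeR adjusted p = 0.451 and 0.0119). Its level in shOSGEP#2 replicate 2 rests on 7 counts. Leaving out this replicate moved the shOSGEP#2 mean to -0.57 and the difference to -1.63 (-1.83 in edgeR). Ndufa2 had means of -0.44 and 0.68 and a difference of 1.12 (edgeR adjusted p = 0.461 and 0.0193). The direct comparison of the shRNAs passed 0.01 for Fastk and Twnk only without that library, and for none of the 4 with it. None of the 7 members showed such a pattern.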

How the results depend on the processing

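The count of members called was 0 in 76 of 79 combinations of an alternative and a comparison, and in each comparison for 17 of 20 alternatives. DESeq2 gave an adjusted p for 2 members with 9 libraries and for 1 with 8, and members without one count as not called. The count was 1 for shOSGEP#1 under the replicate block with shOSGEP#2 replicate 2 left out (mt-Nd3, log2 fold change 3.81, edgeR adjusted p = 0.00593, against 10.8% of all genes called). By DESeq2 it was 1 for shOSGEP#1 with that library left out (mt-Nd3, chosen after the data were seen), and 1 for the mean of the shRNAs with 9 libraries (mt-Nd3). Leaving out each library in turn left 0 to 0. The replicate block with 9 libraries gave 0, and 0 members at an unadjusted p under 0.05 in each comparison. Of all genes, 3.3%, 6.38%, 4.42% and 6.82% were under it for shOSGEP#1, shOSGEP#2, their mean and shOSGEP#2 against shOSGEP#1. Pairing by number was not settled. Same-numbered libraries had a mean correlation of deviations of 0.031 (-0.009 to 0.089, 9 pairs). Without shOSGEP#2 replicate 2 it was 0.081 (-0.003 to 0.180, 7 pairs), and -0.040 for others. A fit of only the groups compared gives no value for the mean of the shRNAs.

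All genes called, 0 in each comparison with 9 libraries, were, for shOSGEP#1, shOSGEP#2, their mean and shOSGEP#2 against shOSGEP#1: 122, 350, 175 and 408 by DESeq2; 2397, 2374, 2339 and 2539 by DESeq2 without shOSGEP#2 replicate 2; 1232, 1217, 1186 and 1375 by edgeR without it; 1380, 1238, 1341 and 1393 with the replicate block as well; 724, 1471, 1174 and 1119 without shOSGEP#1 replicate 3 and shOSGEP#2 replicate 2; and 5, 94, 3 and 86 with at least 10 counts in every library. A fit of only shOSGEP#1 and shCtr called 1495, and an adjusted p under 0.05 gave 2 for shOSGEP#2 against shOSGEP#1. At the 0.05 level, the fit of only shOSGEP#1 and shCtr called 7 of 7 members by edgeR, against 28.3% of 12274 genes.

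Of 242 member fold changes against shCtr (shOSGEP#1 or shOSGEP#2) with an adjusted p under alternatives, 236 kept their sign and side of the threshold; 22 more, by DESeq2, had no adjusted p and kept their sign. For Fastk, Ndufs8, Ndufa8 and Twnk, 92 likewise kept both and 20 kept the sign and passed the threshold that was missed with 9 libraries. For shOSGEP#2 against shOSGEP#1, where the median of the members was -1.005 and 0 were positive, 6 of 7 were positive without shOSGEP#1 replicate 3 (median 2.496), 4 with shOSGEP#2 replicate 2 left out too (0.017), 2 with library totals in place of TMM (-0.34), 2 with the replicate block (-0.21), and 1 without shOSGEP#2 replicate 1 (-0.43) or replicate 3 (-0.44). Reversed for shOSGEP#2 against shCtr were mt-Nd1 without shOSGEP#2 replicate 3 (-0.10, the lowest with a library left out; the highest was 0.70) and, under the replicate block with shOSGEP#2 replicate 2 left out, mt-Nd2 (-0.21), mt-Nd4 (-0.15) and mt-Nd5 (-0.0073). The mean log2 share ranged from 0.77 to 3.20 for shOSGEP#1 and from 0.83 to 3.001 for shOSGEP#2 with a library left out. The mt-Nd6 ratio ranged from -0.14 (without shCtr replicate 1) to 0.67 for shOSGEP#1 and from 0.19 to 1.34 for shOSGEP#2, and with the mean of the log2 counts of the 6 others as denominator it was -0.47 for shOSGEP#1. Without shOSGEP#1 replicate 3 it was -0.13. The cause was not tested.

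In shOSGEP#2 replicate 2, genes under 5.27 CPM lie below the floor of 3 counts, and mt-Nd6 has 11 counts there. With 3 libraries per group and the members' excess in 1 library of each shRNA, the spread between replicates limits these comparisons.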
